A study of Mus musculus with 12 samples.

Results

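Nnt encodes nicotinamide nucleotide transhydrogenase of the inner mitochondrial membrane. It is described here with 9 other mitochondrial enzymes that make NADPH or act in the removal of superoxide and peroxide. The members were Nnt, Idh2, Me3, Me2, Glud1, Gsr, Txnrd2, Txn2, Prdx3 and Sod2, 10 of the 36163 gene names on the array, and every probe that carried one of these names was taken, 19 of 55681. Nnt was chosen because its measured values were low in the 12-week wild type, so its values are a description without a test. The other 9 genes were chosen by function, and 15 of their 16 probes were tested in a fit over 37202 probes. The brains came from BALB/c mice without Il18, which encodes a cytokine of the interleukin-1 family, or with wild-type Il18, and were taken at 12 or 6 weeks of age from untreated animals. Groups are written KO for the knockout and WT for the wild type: 12-week KO, 12-week WT, 6-week KO and 6-week WT, each with 3 arrays that the labels call biological replicates. No label says whether KO and WT mice were littermates, and none gives the knockout allele's construction or the sex. Total RNA of whole brain kept in RNAlater was labelled with Cy3 and hybridised to 1-colour Agilent arrays.

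NNT uses the proton gradient across the inner membrane to reduce NADP+ with NADH, and so supplies NADPH to the mitochondrial matrix. Idh2, the NADP-linked isocitrate dehydrogenase, and the malic enzyme Me3 also make NADPH there, while Me2 and Glud1 are a malic enzyme and glutamate dehydrogenase that can. Glutathione reductase (Gsr) and thioredoxin reductase (Txnrd2) spend NADPH to keep glutathione and thioredoxin 2 (Txn2) reduced, peroxiredoxin 3 (Prdx3) uses thioredoxin 2 to remove hydrogen peroxide, and Sod2 turns superoxide into hydrogen peroxide. Some C57BL/6J stocks are known to carry a deletion within Nnt; the labels here name BALB/c and give no Nnt genotype.

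3 probes on which the results turn lie across an AATAAA hexamer, the usual polyadenylation signal, and are shown because the results on Nnt, Txnrd2 and Txn2 rest on them. Each line gives 30 bases of the probe 5′ to 3′, read from the deposited files with mm9 positions, and the capitals mark the hexamer.
Nnt, bright probe, chr13:120124339-120124368, minus strand: aaccatctgagtAATAAAtgagttcataaa
Txnrd2, chr16:18479129-18479158, plus strand: ttctagagcactAATAAAgaggatgtttta
Txn2, bright probe, chr15:77745483-77745512, minus strand: acaagtcagaccAATAAAaccaggtttgca
AATAAA was found in 4 of the 19 member probes and its reverse complement TTTATT in 1. Over all 55681 probes, 5602 held AATAAA and 3.74% held TTTATT. A match says only that the letters are there. Exon and UTR positions on mm9 were not used here.

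All values below are log2 signal minus the log2 75th percentile of the same array, differences are on that log2 scale with the standard error (SE) of the fit, and group means have an SD with n = 3. A value is comparable between arrays for 1 probe and not between probes, and bright or dim refers to signal on the array, not to transcript amount. Between 65.9% and 76.2% of an array's non-control spots had signal well above background, no spot was saturated, and the number of arrays limits the precision. Il18 read between -0.31 and -0.16 on the 6 KO arrays and between 1.52 and 1.93 on the 6 WT arrays, without overlap. All 5 neuron, 4 astrocyte, 4 oligodendrocyte and 4 microglia markers looked up were above background on every array, as the tissue label has it. The file headers place the arrays on 2 slides scanned separately. Slide 2 holds the 3 arrays of 12-week KO and 6-week KO replicate 3, and slide 1 holds the other 8. Over all probes with values on every array, 27.1% had all 4 slide 2 arrays on one side of all slide 1 arrays. At 12 weeks genotype and slide therefore cannot be told apart except through the 6-week KO group, which lies on both slides.

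Nnt was lowest in the 12-week WT brain and stood at a higher, narrow range in the other 3 groups. Its bright probe, at chr13:120124335-120124394 on the minus strand, read 2.47, 2.45 and 2.43 in 12-week KO, 1.06, 1.19 and 1.06 in 12-week WT, 2.38, 2.30 and 2.51 in 6-week KO, and 2.09, 2.07 and 2.07 in 6-week WT. The 12-week WT arrays lie far below all 9 others, the 6-week WT arrays lie between, and the 2 KO groups overlap. Every slide 2 array, at 2.43 to 2.51, also lay above every slide 1 array, at 1.06 to 2.38. The means were 2.45 ± 0.019 in 12-week KO, 1.10 ± 0.076 in 12-week WT, 2.40 ± 0.11 in 6-week KO and 2.08 ± 0.011 in 6-week WT (SD, n = 3 each). The order was thus 12-week KO, 6-week KO, 6-week WT and 12-week WT from high to low, and only the first 2 do not differ beyond their spread.

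**Figure D1:**
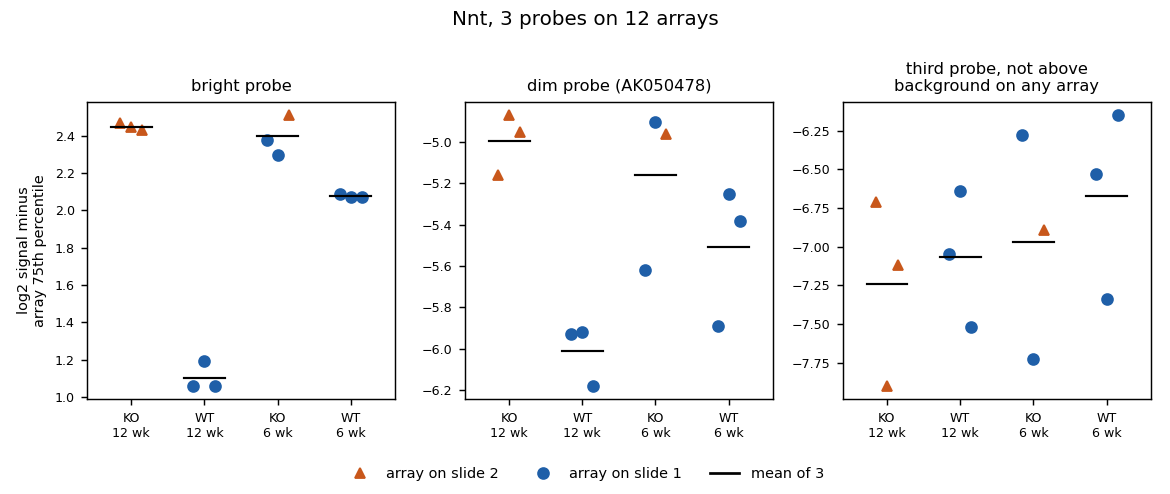
Log2 signal relative to the array's 75th percentile for the 3 Nnt probes, 1 point per array, triangles for slide 2 and circles for slide 1, with the mean of 3 arrays as a bar and a separate vertical scale in each panel. The 12-week WT arrays sit between 1.06 and 1.19 for the bright probe, below the 2.07 to 2.51 of all others, while the third probe was not above background on any array.

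The difference of KO from WT at 12 weeks was 1.35 ± 0.07 (SE), which is 2.54-fold higher in KO. With slide as a block in the fit it was 1.18 ± 0.10. At 6 weeks the difference was 0.32 ± 0.07, and 0.26 within slide 1. The genotype difference was larger at 12 than at 6 weeks by 1.03 ± 0.10. The direction at 12 weeks held in all 24 alternatives, with differences between 1.18 and 1.46. These are descriptions, since the same values chose the gene.

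With age, Nnt was 1.96-fold lower in 12-week than in 6-week WT, a difference of -0.97 ± 0.07, and all 6 arrays share slide 1. Within slide column 2, which holds 12-week WT replicate 1 and every 6-week WT array, it was -1.02. In KO the 12-week level differed from the 6-week level by 0.06 ± 0.07, and by -0.06 against the 6-week KO array on the same slide. Set against the mean of the other 3 groups, 12-week WT differed by -1.20 ± 0.06, and by -1.10 on the 8 arrays of slide 1. Of 37202 probes, 23 had a larger fall in that contrast. The log2 of the summed signal of 4 oligodendrocyte markers also differed with age, at 7.79 to 7.80 in 12-week WT and 8.16 to 8.23 in 6-week WT, and at 7.81 to 7.82 in 12-week KO and 7.92 to 8.25 in 6-week KO. In 12-week WT against the mean of the other 3 groups the marker Mobp was lower, at -0.65 ± 0.13 (adjusted p = 0.0448), and Mog and Mbp had differences of -0.30 and -0.36, with adjusted p-values of 0.0609 and 0.068. Their part in the Nnt values was not tested. Fewer cells that express Nnt and less Nnt RNA per cell cannot be told apart in whole-brain RNA, and the same holds for every gene below.

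The other 2 Nnt probes carry less information. The dim probe, at chr13:120142585-120142644, is named in the files for the transcript AK050478. It read -5.16, -4.87 and -4.95 in 12-week KO, -5.93, -5.92 and -6.18 in 12-week WT, -5.62, -4.90 and -4.96 in 6-week KO, and -5.89, -5.25 and -5.38 in 6-week WT. The 12-week WT arrays were again the lowest 3, but by a narrow gap from 6-week WT replicate 1, and the probe was well above background on only 2 of 3 arrays in each WT group. Its difference of 12-week WT from the other 3 groups was -0.79 ± 0.17, and that of KO from WT at 12 weeks 1.02 ± 0.21 (0.73 with slide as a block). With normexp background correction these were -0.31 and 0.44, the smallest over the alternatives. The third probe, at chr13:120123318-120123377, was above background on no array, so it gives no level and no fold.

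The question for the other 9 enzymes was whether they followed Nnt. In 12-week WT against the mean of the other 3 groups, 1 of their 15 tested probes was called at an adjusted p under 0.05, Txnrd2, against 2.03% of all probes tested (1.09% lower). An unadjusted p under 0.05 was found for 5 of the 15 and for 9735 of all 37202 probes. Its 12-week WT arrays were below all 9 others, as were those of 3.41% of all probes with values on every array. No other enzyme had that pattern. The median absolute difference of the 15 probes was 0.11, against 0.14 over all probes.

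**Figure D2:**
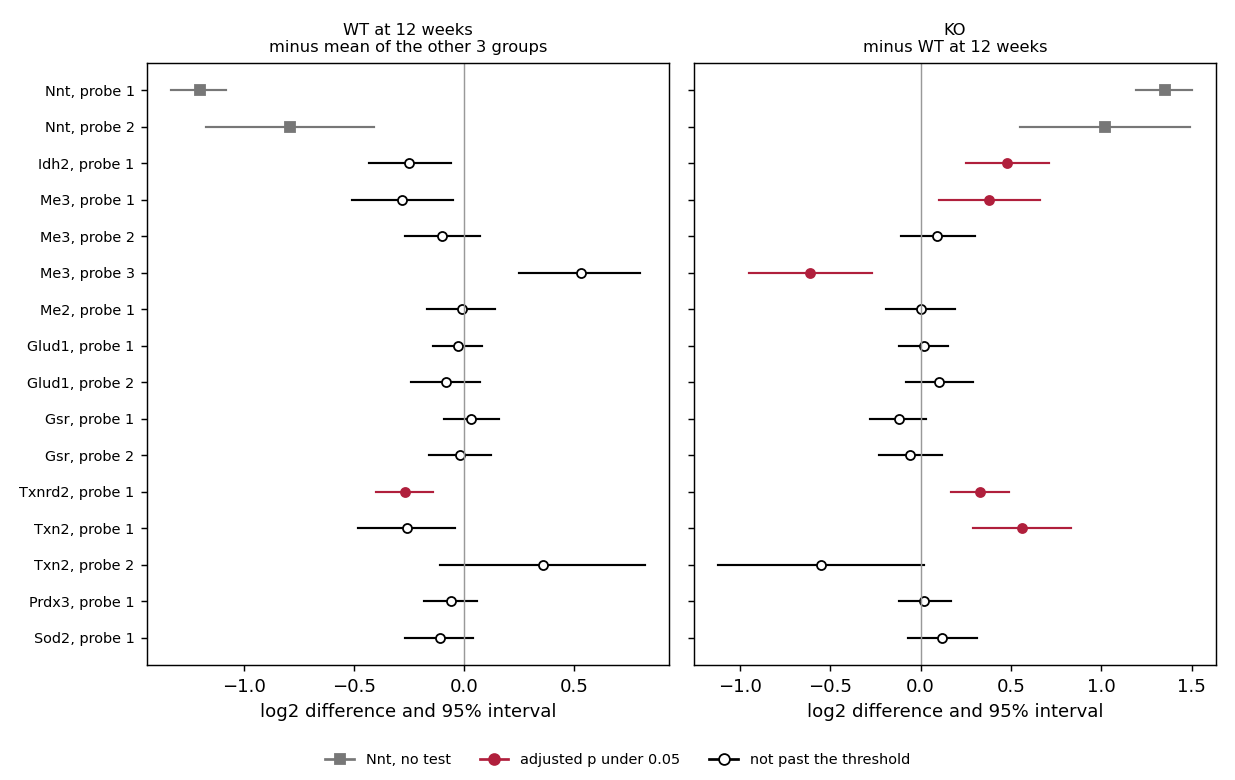
Log2 differences with 95% intervals of limma for 16 member probes, 12-week WT minus the mean of the other 3 groups on the left and KO minus WT at 12 weeks on the right, with Nnt as grey squares without a test and filled circles for an adjusted p under 0.05. The bright Nnt probe lies at -1.20 and the dim one at -0.79 on the left, and the other enzymes lie between -0.28 and 0.53. The tested dim Txn2 probe at chr15:77753661-77753720 is not drawn.

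Txnrd2, the reductase of mitochondrial thioredoxin, was the member most like Nnt. It read 2.21, 2.25 and 2.09 in 12-week KO, 1.79, 1.87 and 1.89 in 12-week WT, 2.07, 2.01 and 2.19 in 6-week KO, and 2.10, 2.14 and 2.05 in 6-week WT. The 12-week WT arrays do not overlap with any other, and the other 3 groups overlap each other. The difference of 12-week WT from their mean was -0.27 ± 0.06 (limma, adjusted p = 0.0487). Within slide 1 the difference was -0.22 (adjusted p = 0.188). The call ended in 18 of 24 alternatives, among them 10 of the 12 that leave out 1 array, with adjusted p between 0.0242 and 0.327, while the direction held in all 24. With age in WT the difference was -0.24 ± 0.07 (adjusted p = 0.169). KO differed from WT at 12 weeks by 0.33 ± 0.07 (adjusted p = 0.0105), and by 0.18 with slide as a block (adjusted p = 0.725). Its Pearson r with Nnt over the 12 arrays was 0.898, a description of arrays that share slides and groups, and 112 other probes (0.302%) had at least that value.

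At 12 weeks 5 of the 15 probes differed between KO and WT, 4 higher in KO and 1 lower, against 31.5% of all probes (16.2% higher and 15.3% lower). The share of members is therefore close to the background. The higher ones were Idh2, Txn2, Txnrd2 and 1 of 3 Me3 probes, and the lower one was another Me3 probe. With slide as a block, fixed or random, no member was called, and of all 37202 probes 33 and 71 were. At 6 weeks no probe was called in KO against WT, where 0.632% of all probes were, and 1 had an unadjusted p under 0.05, as did 6610 of all 37202 probes. In 12-week against 6-week WT none was called, against 0.462% of all probes, and 2 had an unadjusted p under 0.05, as did 5289 of all. In 12-week against 6-week KO none was called, against 1.13% of all probes, and 3 had an unadjusted p under 0.05, as did 9596 of all. None was called for the change of the KO effect from one age to the other (KO minus WT at 12 weeks less the same at 6 weeks), where 0.105% of all probes were, and 4 had an unadjusted p under 0.05, as did 7076 of all.

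Among the other sources of NADPH, Idh2 was higher in 12-week KO than in 12-week WT, and its values also followed the slides. It read 3.37, 3.50 and 3.37 in 12-week KO, 2.77, 3.00 and 3.03 in 12-week WT, 3.12, 2.95 and 3.30 in 6-week KO, and 3.06, 3.02 and 2.91 in 6-week WT. The 12-week KO arrays are above all others, and 6-week KO replicate 3, on the same slide, comes next. KO differed from WT at 12 weeks by 0.48 ± 0.10 (adjusted p = 0.0105), and by 0.22 with slide as a block (adjusted p = 0.77). The slide 2 arrays ran from 3.30 to 3.50 and the slide 1 arrays from 2.77 to 3.12, without overlap.

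Me3, the mitochondrial NADP-dependent malic enzyme, had 3 probes that disagreed. The probe at chr7:97000413-97000472 read 2.67, 2.89 and 2.69 in 12-week KO, 2.25, 2.34 and 2.53 in 12-week WT, 2.55, 2.53 and 2.90 in 6-week KO, and 2.69, 2.38 and 2.54 in 6-week WT. The 12-week KO and WT arrays do not overlap, and the 6-week arrays lie across both ranges. KO differed from WT at 12 weeks by 0.38 ± 0.13 (adjusted p = 0.0452), and the call ended in 13 of 24 alternatives, with 0.02 under the slide block. The probe at chr7:97000311-97000370 differed by 0.09 ± 0.09 (adjusted p = 0.457). The dim probe at chr7:97001889-97001948 read -4.35, -4.85 and -5.02 in 12-week KO, -4.14, -4.06 and -4.20 in 12-week WT, -4.49, -4.70 and -4.75 in 6-week KO, and -4.49, -4.65 and -4.64 in 6-week WT. On it the 12-week WT arrays were above all 9 others, which holds for 2.20% of all probes. KO minus WT at 12 weeks was -0.61 ± 0.15 (adjusted p = 0.0157). A slide block gave -0.46 (adjusted p = 0.727), and with normexp background correction the difference was 0.05 (adjusted p = 0.712).

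Me2 and Glud1 did not separate the groups. Me2, a malic enzyme that prefers NAD, read -0.02, 0.27 and 0.26 in 12-week KO, 0.11, 0.19 and 0.20 in 12-week WT, 0.22, 0.15 and 0.26 in 6-week KO, and 0.14, 0.20 and 0.15 in 6-week WT. All 4 groups overlap, and the interval of 12-week WT minus the others was -0.17 to 0.14. The other Me2 probe was above background on no array. The 2 probes of Glud1, glutamate dehydrogenase, had 12-week WT differences of -0.03 ± 0.05 and -0.08 ± 0.07 from the other groups, with intervals of -0.14 to 0.08 and -0.24 to 0.07.

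**Figure D3:**
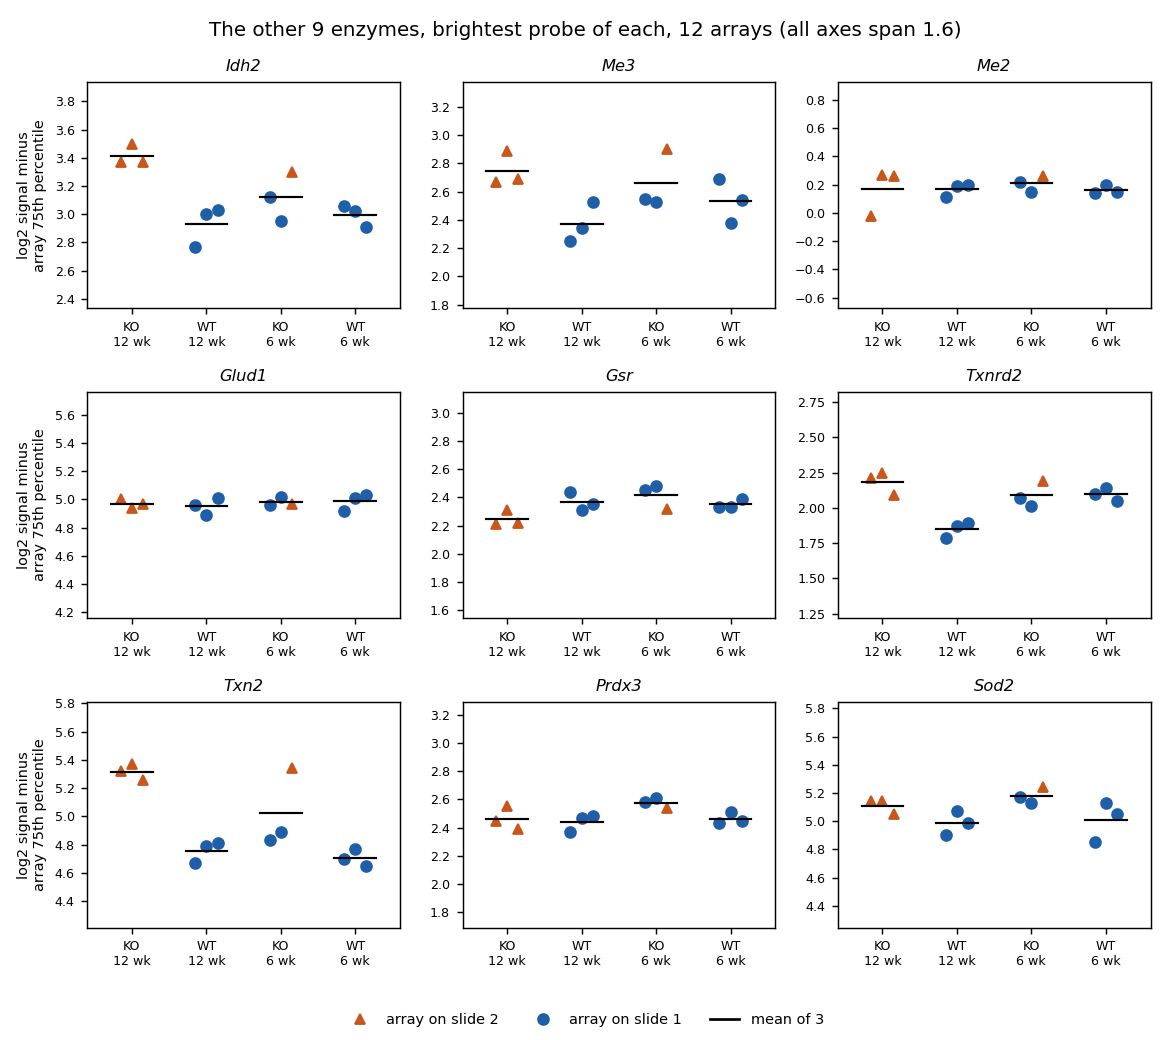
Log2 signal relative to the array's 75th percentile for the brightest probe of each of the 9 other enzymes, 1 point per array, triangles for slide 2 and circles for slide 1, bars for the mean of 3, every vertical axis spanning the same 1.6 log2 units. Txnrd2 alone has its 12-week WT arrays below all others, and Idh2 and Txn2 have all slide 2 arrays above all slide 1 arrays.

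Txn2, the thioredoxin that Txnrd2 reduces, followed the slides on its bright probe. It read 5.32, 5.37 and 5.26 in 12-week KO, 4.67, 4.79 and 4.81 in 12-week WT, 4.83, 4.89 and 5.34 in 6-week KO, and 4.70, 4.77 and 4.65 in 6-week WT. Every slide 2 array, 6-week KO replicate 3 included, was between 5.26 and 5.37, and every slide 1 array between 4.65 and 4.89. KO differed from WT at 12 weeks by 0.56 ± 0.12 (adjusted p = 0.0102), and by 0.08 with slide as a block (adjusted p = 0.886). On 1 dim probe, at chr15:77757053-77757112, KO minus WT at 12 weeks was -0.55 ± 0.26 (adjusted p = 0.123). The other, at chr15:77753661-77753720, was above background on no 12-week KO array and on all 3 of 12-week WT. Its measured KO minus WT at 12 weeks was -0.9 ± 0.6 (limma, adjusted p = 0.273), with an interval of -2.24 to 0.44. With KO signals raised to at least the lowest signals well above background, the means differed 1.45-fold. That bound leaves out the spread between arrays.

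Gsr, Prdx3 and Sod2 had no called difference in any comparison. Gsr, glutathione reductase, read 2.21, 2.31 and 2.22 in 12-week KO, 2.44, 2.31 and 2.35 in 12-week WT, 2.45, 2.48 and 2.32 in 6-week KO, and 2.33, 2.33 and 2.39 in 6-week WT on its brighter probe. The 12-week KO arrays lay below both 6-week groups and met the 12-week WT arrays, with KO minus WT of -0.12 ± 0.07 (adjusted p = 0.187). The other Gsr probe gave -0.06 ± 0.08 (adjusted p = 0.614).

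Prdx3, the peroxiredoxin of the matrix, read 2.45, 2.55 and 2.39 in 12-week KO, 2.37, 2.47 and 2.48 in 12-week WT, 2.58, 2.61 and 2.54 in 6-week KO, and 2.43, 2.51 and 2.45 in 6-week WT. Its values are means of 9 or 10 spots per array with an SD between spots of 0.021 to 0.048. 12-week WT differed from the other groups by -0.06 ± 0.05, with an interval of -0.18 to 0.06. Sod2, manganese superoxide dismutase, read 5.14, 5.14 and 5.05 in 12-week KO, 4.90, 5.07 and 4.99 in 12-week WT, 5.17, 5.13 and 5.24 in 6-week KO, and 4.85, 5.13 and 5.05 in 6-week WT. KO and WT overlap at 12 weeks and meet at 5.13 at 6 weeks, and 12-week WT differed from the other groups by -0.11 ± 0.07, with an interval of -0.27 to 0.04.

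Leaving out 1 array changed some of these counts. Without 6-week KO replicate 3, the 12-week KO level differed from the 6-week KO level for Idh2 by 0.37 (adjusted p = 0.0243), for bright Txn2 by 0.46 (adjusted p = 0.00276) and for the 2 Gsr probes by -0.22 and -0.24 (adjusted p = 0.0331 and 0.0473). In that fit 26% of all probes were called for 12 against 6 weeks in KO, against 1.13% with all arrays. The array left out is the only 6-week KO array on slide 2, so without it age and slide cannot be told apart in KO. Without it the change of the KO effect with age was also called for Txnrd2, at 0.39 (adjusted p = 0.0248), and for bright Txn2, at 0.41 (adjusted p = 0.0216). For that change 15.8% of all probes were called, against 0.105% with all arrays. Likewise, bright Txn2 at -0.21 (adjusted p = 0.0446) and the dim Me3 probe at 0.51 (adjusted p = 0.0453) joined Txnrd2 in 12-week WT against the other groups. In that contrast 8.03% of all probes were called without this array, against 2.03% with all arrays. Without 12-week WT replicate 2, 3 rather than 5 probes were called between KO and WT at 12 weeks, and both Me3 calls were lost. The share of all probes called also fell, to 17.3% from 31.5% with all arrays.

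Wider gene lists were read with 1 probe per gene, for which 31.8% of 26499 genes were called between KO and WT at 12 weeks, 17.7% higher and 14% lower in KO. Of 12 other mitochondrial redox genes 4 rose in KO and none fell, among them Prdx5, a peroxiredoxin, by 0.44 ± 0.08 (adjusted p = 0.00796) and Gpx4, which reduces lipid peroxides, by 0.50 ± 0.10 (adjusted p = 0.00818). Gpx1, which reduces hydrogen peroxide, and Shmt2, of mitochondrial folate metabolism, differed by 0.44 and 0.30. Of 23 redox genes of the cytosol and other sites outside mitochondria, 9 rose and 1 fell. Txnrd1, the cytosolic thioredoxin reductase, led at 0.66 ± 0.12 (adjusted p = 0.00717). Idh1, the cytosolic NADP-linked isocitrate dehydrogenase, fell by 0.40 ± 0.07 on the log2 scale (adjusted p = 0.00707). Gss, glutathione synthetase, and the glutaredoxin Glrx differed by 0.41 and 0.51. Of 23 genes of the mitochondrial matrix and membranes 9 rose and 1 fell, with Ogdh, of the citric acid cycle, at 0.59 ± 0.12 (adjusted p = 0.00936), and quantile normalization turned this to 2 and 6. Mdh2, also of that cycle, differed by 0.37 and the prohibitin Phb2 by 0.44. The gene of this list that fell was Tfam, at -0.39 ± 0.11 (adjusted p = 0.0242). Without 12-week KO replicate 1, or without 12-week WT replicate 3, 6 genes of this list were called. Of all probes, 17.8% and 22% were called in these fits, against 31.5% with all arrays. Of 13 targets of the oxidant-response factor Nrf2, which share 4 genes with the list from outside mitochondria, 6 rose and 1 fell. Gstm1, a glutathione transferase, was at 0.56 ± 0.10 (adjusted p = 0.00707), Ftl1, a ferritin chain, at 0.58, and Srxn1, sulfiredoxin, at 0.38. The target that fell was Nqo1, at -0.42 ± 0.13 (adjusted p = 0.0362). Hmox1, Gclc, Gclm and Slc7a11 were not called. The median differences were 0.06, 0.19, 0.15 and 0.25 in that order, against 0.02 over all genes. With slide as a block, fixed or random, no gene of the 4 lists was called. Txnrd1 read 2.86 in 6-week KO replicate 3, among the 2.80 to 2.99 of 12-week KO, and 2.42 and 2.35 in the other 6-week KO arrays.

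In 12-week WT against the other 3 groups 1 gene of the 4 lists, Prdx2, was called, where 2.12% of all genes were. In the order above, 6 of 12, 10 of 23, 8 of 23 and 5 of 13 genes had an unadjusted p under 0.05. So did 7011 of all 26499 genes. The median differences were -0.05, -0.12, -0.11 and -0.1, against -0.01 over all genes. Prdx2, a cytosolic peroxiredoxin, read 5.12, 5.12 and 5.06 in 12-week KO, 4.75, 4.73 and 4.77 in 12-week WT, 4.90, 5.02 and 5.16 in 6-week KO, and 5.01, 5.08 and 5.05 in 6-week WT. Its 12-week WT arrays were below all others, by -0.31 ± 0.06 (adjusted p = 0.0369), and the call ended in 15 of 24 alternatives, with adjusted p between 0.0117 and 0.239. In KO against WT at 6 weeks no gene of the lists was called, against 0.706% of all genes, and 1 to 3 of each list had an unadjusted p under 0.05, as did 4754 of all 26499 genes. With age in WT none was called, against 0.528% of all genes, and 0 to 4 of each list had an unadjusted p under 0.05, as did 3797 of all genes. With age in KO only Idh1 was (background 1.22%), at -0.37 ± 0.07 (adjusted p = 0.0481), a call that ended in 18 of 25 alternatives. Sums over some cell marker lists also differed between the 12-week groups, whose genotypes lie on different slides. Called higher in 12-week KO were 1 of 5 neuron, 2 of 4 astrocyte and 3 of 4 microglia markers. So were 2 of 3 endothelial and 4 of 5 blood markers, against 17.7% of all genes. The log2 of the summed signal of 5 neuron markers was 7.94 to 8.10 in 12-week KO and 7.70 to 7.83 in 12-week WT. It was 8.53 to 8.69 in 12-week KO and 8.21 to 8.29 in 12-week WT for 4 astrocyte markers, and 3.94 to 4.06 in 12-week KO and 3.66 to 3.73 in 12-week WT for 4 microglia markers. For 3 endothelial markers it was 4.05 to 4.26 in 12-week KO and 3.68 to 3.86 in 12-week WT, and for 5 blood markers 6.45 to 7.16 in 12-week KO and 5.87 to 6.36 in 12-week WT. Of the 4 oligodendrocyte markers, Mbp at 0.44 ± 0.11 (adjusted p = 0.0182) and Mobp at 0.50 ± 0.16 (adjusted p = 0.0382) were called higher in 12-week KO than in 12-week WT. In 6-week KO, on both slides, the sums were 7.81 to 8.17 for neuron, 8.09 to 8.68 for astrocyte and 3.72 to 3.97 for microglia markers. They were 3.8 to 4.15 for endothelial and 5.75 to 6.28 for blood markers. In 6-week WT the sums were 7.75 to 7.85, 8.36 to 8.42, 3.68 to 3.76, 3.4 to 3.49 and 5.59 to 6 in the same order. Only the endothelial ranges did not overlap between the 6-week genotypes. The endothelial marker Cldn5 was higher in 6-week KO than in 6-week WT, by 0.66 ± 0.10 (limma, adjusted p = 0.0172). No other marker was called in that comparison. The 12-week ranges of 3 choroid plexus markers overlapped, at 6.35 to 6.68 in KO and 6.22 to 6.43 in WT. All of these markers were above background on every array. Their part in the results was not tested.

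8 genes had profiles most like that of the bright Nnt probe, out of 9830 probes that spanned at least 1 log2 unit over the 12 arrays. They were Mical1, a flavoprotein that oxidises actin (r = 0.97), Cybasc3, an ascorbate-dependent cytochrome b (0.941), Ppef2, a calcium-binding protein phosphatase (0.932), and Erdr1 (0.925). Bfsp2, a lens filament protein (0.92), Ube2c, a ubiquitin-conjugating enzyme of the cell cycle (0.91), Dnajb5, an Hsp40 co-chaperone (0.909), and Dgcr6 (0.9) followed. Mical1 averaged 1.09 ± 0.069 in 12-week KO, -1.35 ± 0.076 in 12-week WT, 1.02 ± 0.082 in 6-week KO and 0.97 ± 0.054 in 6-week WT (SD, n = 3 each). Unlike Nnt, its 6-week groups overlapped. Erdr1 averaged 4.64 ± 0.39 in 12-week KO, -1.13 ± 0.43 in 12-week WT, 3.66 ± 0.30 in 6-week KO and 4.48 ± 0.76 in 6-week WT. Ppef2 was above background on no 12-week WT array. The files place these genes on chromosomes other than that of Nnt, with no position for Erdr1, and other probes of Ube2c and Dnajb5 had r of 0.903 and 0.762. These values were selected for likeness and carry no test.

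**Figure D4:**
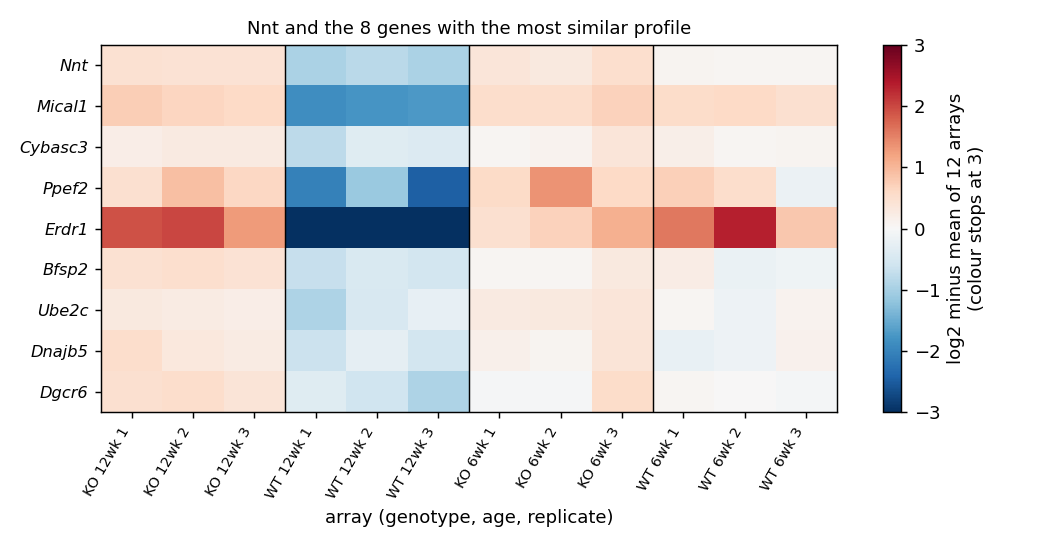
Colour map of log2 signal minus the gene's mean over 12 arrays for Nnt and the 8 genes with the highest Pearson r to it, 1 column per array. All 9 genes are lowest in the 12-week WT columns, and Erdr1 passes the end of the colour scale at 3 there.

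None of the genes tested near Nnt on chromosome 13 was called lower with age in WT. Of 23 genes with a tested probe within 5 Mb, 1 rose and none fell in 12-week against 6-week WT, where 0.528% of all genes were called, and 5 had an unadjusted p under 0.05, as did 3797 of all 26499 genes. The gene that rose was Fgf10, a growth factor, at -0.54 Mb from the Nnt probe, by 0.48 ± 0.09 (adjusted p = 0.0492). That call ended in 16 of 25 alternatives, with an adjusted p of up to 0.192, among them 10 of the 12 that each left out 1 array. Paip1, a translation factor 0.12 Mb on the other side, differed by -0.19 ± 0.13 (adjusted p = 0.537). Mrps30, a mitochondrial ribosomal protein, differed by -0.01 ± 0.08 (adjusted p = 0.973). The largest falls were -0.37 ± 0.16 (adjusted p = 0.326) for an entry without a gene name at 0.13 Mb and -0.34 ± 0.08 (adjusted p = 0.103) for 6330563C09Rik at -1.35 Mb. The 17 neighbours at lower coordinates reach to -4.88 Mb, and the 6 at higher coordinates only to 0.16 Mb. In 12-week WT against the mean of the other 3 groups, where 2.12% of all genes were called, 1 neighbour was higher and 1 lower, Fst, an activin-binding protein at -4.88 Mb, by -0.66 ± 0.13 (adjusted p = 0.0443). The Fst call ended in 14 of 24 alternatives, with an adjusted p of up to 0.289 and a difference as small as -0.36, and that of the higher neighbour in 17 of 24. In KO against WT at 12 weeks, where 31.8% of all genes were called, 4 neighbours were higher and 5 lower.

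**Figure D5:**
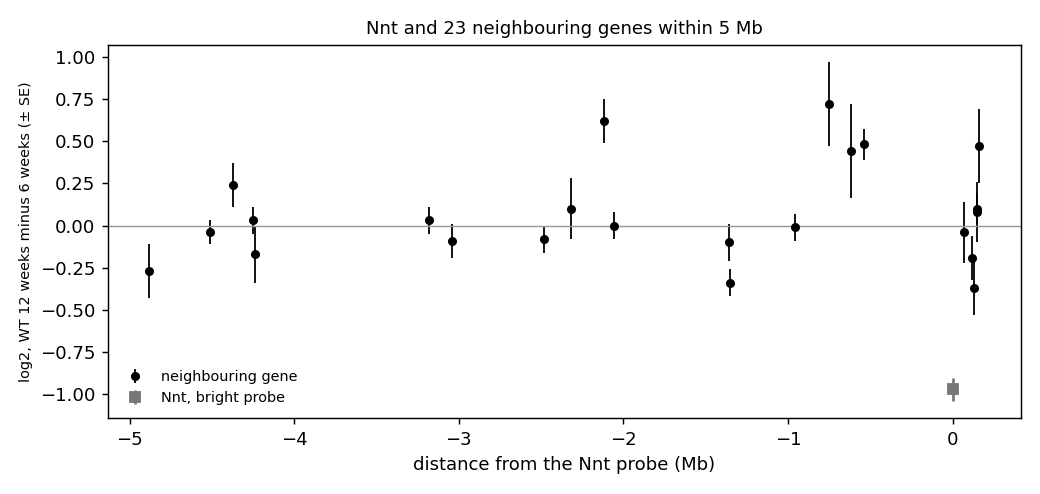
Log2 difference of 12-week from 6-week WT with its SE for Nnt (square) and 23 genes within 5 Mb (circles), by distance from the bright Nnt probe in Mb. Nnt lies at -0.97, and the neighbours lie between -0.37 and 0.72.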

How the data were processed

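Per the labels, 12 arrays made 4 groups of 3. The submitters' processing notes name Agilent Feature Extraction, version 10.7.3.1. Per the file headers, the signal columns that the authors deposited are spot intensity. The processed signal is background-subtracted and detrended within the array, and not normalized between arrays. Other values that the authors deposited are flags of 0 or 1 for spots above background, saturated or outlying. The deposited value table, also intensity, differed from the processed signal by at most 0.498%. Outlier and control spots were left out, the processed signal was taken as log2, the log2 75th percentile of the array was subtracted, and repeated spots were averaged. Of 55681 probes, the 37202 that were well above background on each of the 3 arrays in some group were tested. limma 3.58.1 in R 4.3.3 (lmFit, eBayes, 1 mean per group over 12 arrays, two-sided) was run on all of these, with Benjamini-Hochberg adjustment over all probes and a threshold of 0.05, and was tested on simulated data. Nothing in the labels says that replicates share a litter or day. Where a group's arrays are all below background, a fold is a bound on the means that leaves out the spread between arrays. Genes most like Nnt are the 8 names with the highest Pearson r over probes spanning at least 1 log2 unit. From each list up to 4 called genes are named by smallest p, and genes called lower in KO at 12 weeks are named as well. A few genes that these rules select are not reported here. The members, lists and tests were chosen with earlier results of these data known. Same-numbered arrays of different groups deviated together with r between -0.19 and 0.10 over 18 pairs, so the numbers do not pair samples. Gene names and mm9 positions are those of the files.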

Additional observations from a re-analysis of the deposited data

How the results depend on the processing

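The count of called probes of the 9 enzymes in KO against WT at 12 weeks was 5. It was 0 with slide as a block, fixed or random, and 3 with quantile normalization, stayed at 4 to 6 under the other settings run on all arrays, and ranged from 3 to 5 when 1 array was left out. In 12-week WT against the other 3 groups it was 1. It was 0 with slide as a block, fixed or random, with the array's column as a block, with a replicate block, quantile normalization, median scaling, no filter on dim probes, or the 8 arrays of slide 1 alone (chosen after seeing the data). It was 2 with only probes above background on all 12 arrays, where 4.01% of all probes tested were called. When 1 array was left out it was 0 to 3. For 12 against 6 weeks in KO the count was 0 to 4 and for the change of the KO effect with age 0 to 2 when 1 array was left out. The highest counts of these contrasts came without 6-week KO replicate 3, where 8.03%, 26% and 15.8% of all probes were called in that order. The count was 0 throughout for KO against WT at 6 weeks and for 12 against 6 weeks in WT. The dim Me3 probe turned to 0.05 at 12 weeks with normexp. With the replicate block 4 probes were called at 12 weeks, and the numbers do not pair the arrays. Over all probes 11730 were called at 12 weeks, 33 and 71 with slide as a fixed and a random block, 7480 with the array's column as a block, 7991 of 55681 without a filter. These split 6032 higher and 5698 lower in KO, 7204 and 4317 with normexp, and 9053 and 3172 with median scaling, which moved the median of all probes by 0.112. Limiting the fit to the groups compared changes nothing for contrasts that use all 4 groups. The causes were not tested. Signal near background limits the dim Nnt, Me3 and Txn2 probes.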
